A study of Mus musculus with 25 samples.

Results

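The longest intervals of a methylation survey of the mouse pancreas are described here: the 2318 autosomal intervals of 2500 to 3000 bp among the 22749 listed, or 10.2% of the table. An interval is the stretch between a pair of neighbouring SmaI/XmaI recognition sites, and members were chosen by length and chromosome alone, with no measured value. The assay was methylation-sensitive amplification with sequencing (MSA-seq). SmaI cuts its CCCGGG site only where the site is unmethylated and leaves blunt ends, XmaI then opens the methylated sites with overhangs, and adaptors that fit those overhangs let the intervals between methylated sites be amplified and counted. A read count therefore stands for methylation of both end sites together, on a relative scale with no absolute level.

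All 25 samples came from mice of the FVB strain, with 5 samples in each group. Control P21 islets came from mice raised in litters of 9 pups and taken at postnatal day 21, and control P180 islets from such mice at day 180. Small-litter P21 and small-litter P180 islets came from mice raised in litters of 4 pups, a model of overfeeding in early life, at the same ages. Exocrine tissue was whole pancreas of control mice at P21, so it also held the islets that lie in the organ, while islets had been cleaned by 3 rounds of hand-picking. Which litter each mouse came from was not given, so the p-values measure only the spread between these mice, some of which may be siblings. The intervals were not assigned to genes, because no annotation of the files' genome build (mm9) was used, and the labelled tissues were not checked against marker genes.

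Cytosine methylation in mammals sits mostly at CpG dinucleotides, is copied when a cell divides, and differs between cell types at promoters and, more often, at distal regulatory elements. The islets of the pancreas secrete hormones such as insulin and glucagon into the blood, while the acinar cells that fill most of the organ secrete digestive enzymes. Both arise from the same embryonic progenitors, and their methylation diverges at a subset of sites. A CCCGGG site holds 1 CpG, and such sites are crowded in CpG islands and thinly spread elsewhere.

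The members had a median length of 2744 bp, with quartiles at 2614 and 2868 bp. There were 5 of exactly 2500 bp, 2 of 3000 bp, and 6 autosomal intervals of 2499 bp just outside the limit. The 97 intervals of 2480 to 2499 bp had a median level of 8.87 CPM (read counts scaled to library size and composition) and the 108 of 2500 to 2519 bp one of 6.53 CPM. The members lay on every autosome and made up from 8.17% of the listed intervals on chromosome 12 to 12.4% on chromosome 15.

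Length did not mean fewer listed sites nearby in this table. Of the long intervals, 1093 (47.2%) shared an end site with another listed interval, against 44.6% of all autosomal intervals and 46.4% of those under 500 bp. Within 10 kb of an interval's centre the median number of listed sites was 3 for long intervals, for all autosomal intervals and for those under 500 bp. No other listed site than their own pair lay in that window for 40.2% of long and 43.1% of all autosomal intervals. Sites whose intervals are not in the table were not seen, so the density of all recognition sites around the members was not measured. The members are therefore called long here, with no statement on how sparse the sites around them are.

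What set the long intervals apart was a low count. Their median level over the 25 libraries was 7.27 CPM (quartiles 4.57 and 12.8), against 17.2 CPM for all intervals. Median levels by length were 15.5 CPM under 500 bp, 59.0 CPM from 500 to 999 bp, 31.0 CPM from 1000 to 1499 bp, 15.7 CPM from 1500 to 1999 bp and 9.33 CPM from 2000 to 2499 bp. Only 36 long intervals (1.55%) exceeded 50 CPM, a level that 23.8% of all intervals passed. The total count of a long interval over all libraries ran from 193 to 54596 with a median of 912.5, and 102 members had no read in at least 1 library. Amplification without molecular tags means that these counts are not independent molecules. The level fell with length over most of the range, and in these levels length and methylation cannot be told apart.

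Low counts went with wider spread between mice. The median SD of log2 CPM of a long interval among the 5 libraries of a group was 0.48 in control P21 islets, 0.46 in small-litter P21 islets, 0.41 in control P180 islets, 0.39 in small-litter P180 islets and 0.52 in exocrine tissue. The same value over all intervals ran from 0.32 to 0.40. The median standard error of the log2 fold change between tissues was 0.35 for long and 0.28 for all intervals, so a difference had to be larger to be called here.

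The deposited table itself had a floor that bears on these members. In every listed interval the 5 libraries of at least 1 group summed to 100 counts or more, and in 56 intervals the highest such sum was exactly 100. Of the long intervals, 302 (13.0%) reached that sum in 1 group alone, against 5.76% of all intervals. For 193 of them that group was exocrine tissue, for 100 small-litter P21 islets, for 6 control P180 islets, for 3 small-litter P180 islets and for 0 control P21 islets. An interval listed through its exocrine count alone had a higher summed count there than in each islet group, before scaling to library size. Library sizes differed, with a median of 5071991 counts in exocrine tissue and 4229604 in control P21 islets. The numbers of higher and lower calls between tissues, and the median, are therefore given below with these 193 and in a fit without them. Other counts of calls between tissues include those of the 193 that were tested.

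Libraries held 2912624 to 10591677 counts. Long intervals took 2.08%, 2.16%, 2.98%, 2.85% and 2.26% of the counts in replicates 1 to 5 of control P21 islets, and 2.61%, 3.08%, 3.43%, 2.46% and 1.91% in small-litter P21 islets. At P180 the shares were 2.31%, 2.65%, 1.71%, 2.59% and 2.55% in control litters and 2.43%, 2.28%, 1.96%, 2.52% and 2.70% in small litters. In exocrine tissue they were 3.70%, 2.87%, 2.96%, 2.98% and 1.97%. The groups overlapped throughout: exocrine replicate 5 lay below every control P21 islet library, and exocrine replicate 1 above every other library of the series.

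**Figure D1:**
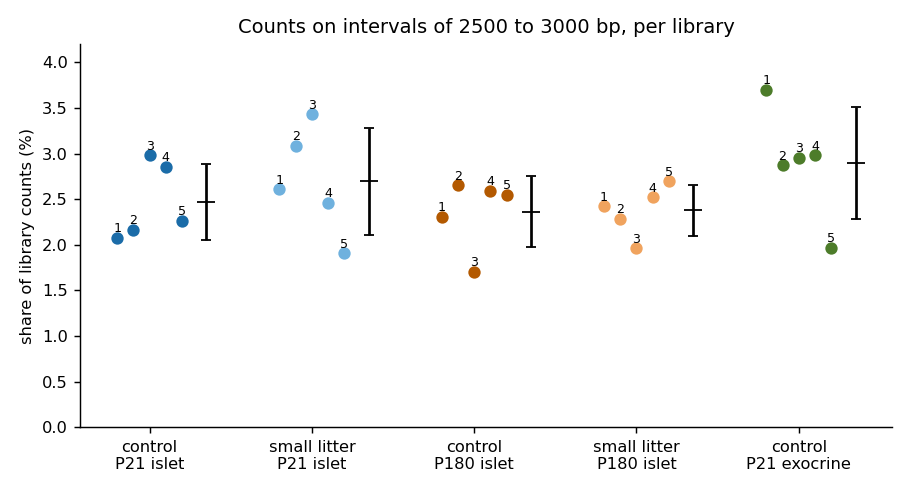
Share of each library's counts (%, y axis) that fell on the 2318 intervals of 2500 to 3000 bp, for the 5 groups (x axis). Points are single libraries with their replicate number, and the bar beside each group is its mean with the SD over 5 libraries; exocrine replicate 1 stands at 3.70% and exocrine replicate 5 at 1.97%.

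Libraries also differed in their trend on interval length. The deviation of a library from the mean of all 25 libraries correlated with interval length, across intervals, from -0.52 in control P21 islet replicate 2 to 0.44 in small-litter P21 islet replicate 3. Over the long intervals the median log2 deviation was 0.69 in exocrine replicate 1, 0.33, 0.33 and 0.31 in exocrine replicates 2, 3 and 4, and -0.24 in exocrine replicate 5. In control P21 islets it was -0.28 and -0.22 in replicates 1 and 2, 0.21 and 0.14 in replicates 3 and 4, and -0.0097 in replicate 5. Every comparison below was therefore made with these trends kept and again with each library's trend on length removed.

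**Figure D2:**
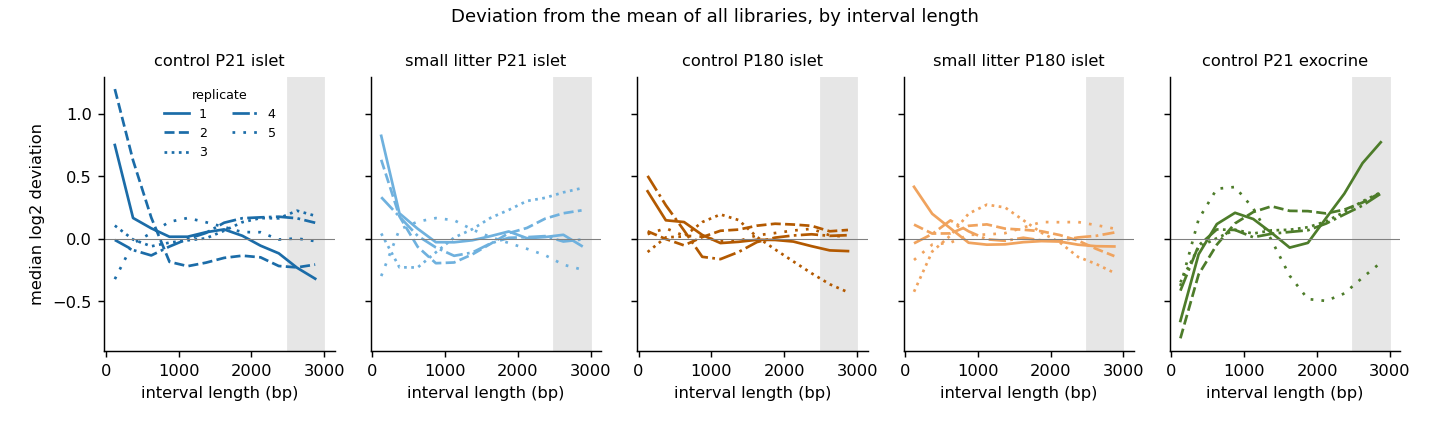
Median log2 deviation of each library from the mean of all 25 libraries (y axis) in steps of 250 bp of interval length (x axis, bp), with 1 panel per group and 1 line per replicate; the grey band marks 2500 to 3000 bp. Within the band exocrine replicates 1 to 4 lie above 0 and exocrine replicate 5 below it, and the islet libraries fan out to both sides.

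Between tissues, exocrine pancreas against control P21 islets, long intervals leaned toward more counts in exocrine tissue. Of the 2299 long intervals tested (19 missed the filter on low counts), 247 (10.7%) were higher in exocrine tissue and 55 (2.39%) lower, by edgeR's quasi-likelihood test at an adjusted p of 0.05. Over all intervals tested 22.1% were called, 8.07% higher and 14.0% lower. The median log2 fold change of long intervals was 0.33, against -0.023 for all intervals. The share called higher was not particular to long intervals. It was 13.7% at 500 to 999 bp (12.5% lower) and 10.4% at 1000 to 1499 bp (9.19% lower), on autosomes. At 2000 to 2499 bp 7.78% were called higher and 5.32% lower, with a median of 0.040. Under 500 bp 2.18% were called higher and 33.0% lower. More than 2-fold differences were called for 171 long intervals higher (7.44%) and 38 lower (1.65%), against 3.22% and 10.1% of all intervals. The 5 exocrine and 5 control P21 islet libraries did not overlap in 140 of the intervals called higher (over all intervals tested, 5.28% were so called) and in 32 of those called lower (7.80% over all).

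Removing each library's trend on length centres every length class by construction, and scaling by long intervals alone centres the long class, so the medians in these fits are no test of the lean. With length trends removed the median log2 fold change of long intervals was 0.050, and 147 (6.39%) were called higher and 183 (7.96%) lower, where 11.9% and 11.8% of all intervals were so called (23.7% in all). With scaling factors computed from long intervals alone the median was 0.032, with 82 called higher and 134 lower. The share over all intervals was not computed for that fit. Within the long intervals the median rose with length when the trend was kept, from 0.20 at 2500 to 2599 bp to 0.45 at 2800 to 2899 bp and 0.43 at 2900 to 3000 bp, and ran from 0.012 to 0.11 when it was removed. Called in both fits were 144 intervals higher and 55 lower. That is 144 of the 247 higher and each of the 55 lower calls made with the trend kept. The share of all intervals called in both fits was not computed.

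The count of higher calls moved with single libraries and less with the floor of the table. Without control P21 islet replicate 1 there were 138 higher calls, and without exocrine replicate 1 there were 132. Leaving out control P21 islet replicate 2 cut the lower calls to 34. Shares over all intervals were not computed for these refits. Of the 193 intervals listed through exocrine counts alone, 184 were tested, and 42 were called higher (22.8%) and 0 lower by edgeR. Over all lengths 25.9% of the intervals listed in this way were called higher. Listing through exocrine counts alone largely set their direction in advance, so these calls are a description and no test. In a fit restricted to intervals that reached 100 counts in an islet group outside the comparison, which was chosen after seeing the data, 221 of 2115 long intervals were higher (10.4%, against 8.13% of all) and 53 lower (2.51%, against 13.9% of all), and the median was 0.31.

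**Figure D3:**
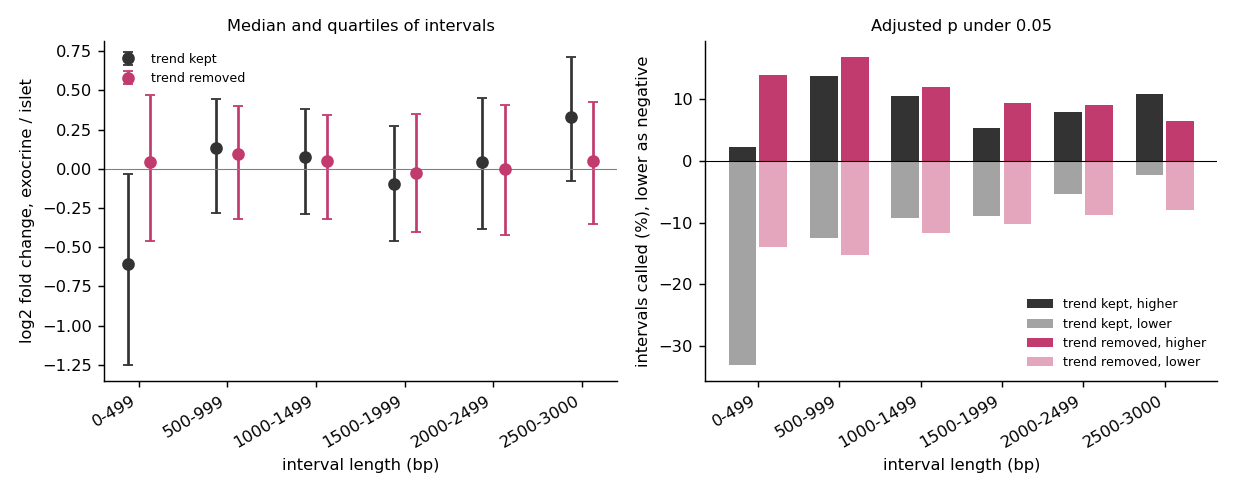
Left, median log2 fold change of exocrine tissue over control P21 islets (y axis) by interval length (x axis, bp), with bars from the lower to the upper quartile of the autosomal intervals in each class; right, percent of intervals called at an adjusted p under 0.05 by edgeR, lower calls drawn below 0. With the trend kept the longest class has a median of 0.33 and the class under 500 bp one of -0.61, and with the trend removed the longest class has 0.050.

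By the naming rule, the 10 with the largest log2 fold change among the 93 that were called in both fits and whose libraries did not overlap were taken, and 7 of these 10 were listed through their exocrine counts alone. Their place in the table rests on the group where they are high, so their values are a description with no test: control P21 islet means of 0.77 to 2.79 CPM and log2 fold changes of 1.92 to 2.60. They are chr11:53277065-53280013, chr7:151155304-151157881, chr2:23080024-23082989, chr1:94853471-94856324, chr2:57117965-57120756, chr16:18181141-18183870 and chr16:20607913-20610844. The last lost its call without control P21 islet replicate 1, without exocrine replicate 1 and in limma voom. The other 3 reached the floor in islets too.

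The 2645 bp interval chr10:93583707-93586352 had the smallest adjusted p of the 3. Replicates 1 to 5 of control P21 islets had 2.39, 1.43, 4.91, 3.94 and 2.04 CPM, and exocrine replicates had 19.98, 11.9, 12.8, 10.7 and 6.40 CPM. The lowest exocrine library lay above all 20 islet libraries, of which the highest had 5.21 CPM. Its log2 fold change was 2.00 ± 0.39 (SE, n = 5 per group; edgeR adjusted p = 0.00237), and 1.76 ± 0.29 with the trend removed. The interval next to it, chr10:93586352-93588432, shares an end site and had 7.73 CPM in control P21 islets and 15.5 CPM in exocrine tissue, a difference that did not pass (edgeR adjusted p = 0.135).

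The 2626 bp interval chr13:5328185-5330811 had 1.36, 5.26, 0, 0.985 and 5.10 CPM in control P21 islets and 26.9, 15.0, 11.1, 12.0 and 19.03 CPM in exocrine tissue. The groups did not overlap, as the naming rule required, and the log2 fold change was 2.64 ± 0.58 (edgeR adjusted p = 0.00573). Its means were 5.56 ± 3.3, 8.65 ± 2.7 and 4.60 ± 4.1 CPM (SD, n = 5) in small-litter P21, control P180 and small-litter P180 islets. No contrast of age or litter size among the islet groups called it by edgeR. The 2936 bp interval chr14:70375990-70378926 had 6.14, 5.26, 8.28, 6.40 and 8.93 CPM in control P21 islets and 60.6, 15.0, 16.2, 10.01 and 40.2 CPM in exocrine tissue. Exocrine replicates 1 and 5, which had opposite trends on length, were the highest here, and the log2 fold change was 1.97 ± 0.43 (edgeR adjusted p = 0.00545).

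Of the next 5 higher intervals by size that reached the floor in an islet group, with log2 fold changes of 1.65 to 1.89, the 2 with the smallest adjusted p are given, chosen after their values were seen. The 2528 bp interval chr6:28373676-28376204 had 2.39, 2.63, 4.29, 3.28 and 6.64 CPM in control P21 islets and 20.99, 10.7, 13.9, 13.3 and 15.3 CPM in exocrine tissue. The 2868 bp interval chr16:20635779-20638647 had 5.80, 5.50, 6.75, 9.03 and 11.7 CPM in control P21 islets and 34.5, 20.96, 25.6, 24.9 and 21.2 CPM in exocrine tissue. In both, the exocrine libraries lay above all 20 islet libraries. The log2 fold changes were 1.89 ± 0.33 and 1.65 ± 0.26 (edgeR adjusted p = 0.00101 and 0.000516). Exocrine libraries lay wholly above all 20 islet libraries in 44 of the long intervals called higher, where 1.43% of all intervals tested were so called, and wholly below them in 4 of those called lower (1.88% of all).

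**Figure D4:**
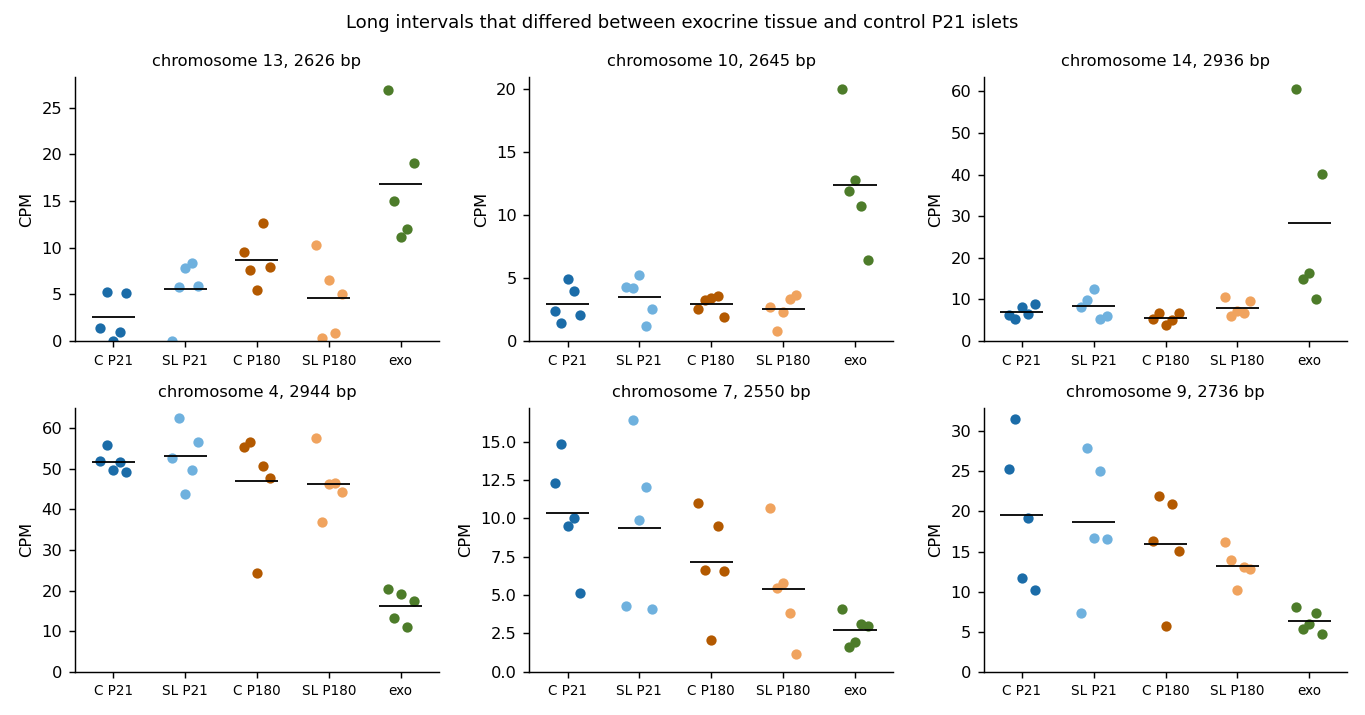
CPM (y axis, linear, from 0) of 6 long intervals in each library of the 5 groups (x axis: C, control litters; SL, small litters; exo, exocrine tissue of control mice at P21); points are libraries and bars are means of 5. The upper 3 intervals were called higher and the lower 3 lower in exocrine tissue than in control P21 islets. For each of the 6 the libraries of these 2 groups do not overlap, as the naming rule required.

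Among the intervals lower in exocrine tissue, the smallest adjusted p of any long interval belonged to the 2944 bp interval chr4:125455004-125457948. It had 51.9, 55.7, 49.7, 51.7 and 49.3 CPM in control P21 islets and 20.5, 13.2, 19.2, 11.1 and 17.3 CPM in exocrine tissue. All 20 islet libraries lay above the highest exocrine library, the lowest of them at 24.4 CPM in control P180 islet replicate 3. The log2 fold change was -1.72 ± 0.20 (edgeR adjusted p = 3.37e-05), and -2.10 ± 0.23 with the trend removed. The 585 bp interval that follows it, chr4:125457948-125458533, fell by 2.08 on the log2 scale, from 42.7 ± 14 to 10.4 ± 4.4 CPM (SD, n = 5; edgeR adjusted p = 0.000387).

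The 2736 bp interval chr9:61866713-61869449 had 25.2, 31.6, 11.7, 19.2 and 10.2 CPM in control P21 islets and 8.13, 5.34, 5.98, 7.34 and 4.68 CPM in exocrine tissue, with a log2 fold change of -1.70 ± 0.34 (edgeR adjusted p = 0.00253). The 2550 bp interval chr7:105273425-105275975 had 12.3, 14.8, 9.51, 10.01 and 5.10 CPM against 4.06, 1.64, 1.92, 3.11 and 2.96 CPM, with a log2 fold change of -1.96 ± 0.37 (edgeR adjusted p = 0.00179). In both, exocrine and control P21 islet libraries did not overlap, as the naming rule required. Other islet libraries reached into the exocrine range, with 5.77 CPM in control P180 islet replicate 3 for the first interval. For the second, small-litter P180 islet replicate 5 had 1.14 CPM. The 219 bp interval chr9:61866494-61866713 had a log2 fold change of -3.13 and the 114 bp interval chr7:105273311-105273425 one of -4.17, which were -2.19 and -2.88 with the trend removed, beside -2.04 and -2.14 for the long intervals. The long and short intervals of a pair were not compared by a test. All 4 differences from control P21 islets passed with the trend kept and with it removed, which the naming rule required of the long intervals.

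Of the other 7 intervals named by the rule as lower, chr4:139799632-139802186 (2554 bp) also lay below all 20 islet libraries in exocrine tissue. It had 24.9, 64.8, 23.9, 18.1 and 14.3 CPM in control P21 islets and 9.14, 3.49, 5.55, 9.79 and 8.27 CPM in exocrine tissue. Control P21 islet replicate 2 stood far above the other islet libraries of its group, and the call held in each of 10 refits that left out 1 library, with an edgeR adjusted p of at most 0.00917. The remaining 6 had control P21 islet means of 3.78 to 10.5 CPM and log2 fold changes of -1.66 to -2.28. They are chr16:9070042-9073009, chr19:53629227-53632113, chr9:57544998-57547656, chr15:25689757-25692384, chr3:100648227-100650896 and chr2:179433409-179436032. The first lost its call in 3 of 10 refits, without control P21 islet replicates 1, 2 or 4 (edgeR adjusted p = 0.0521, 0.0596 and 0.0551), and the second in 1, without exocrine replicate 2 (edgeR adjusted p = 0.0511).

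Neighbours that share an end site gave a second reading of the same place, though from the same libraries and partly from the same site. There were 1143 pairs of a long interval with a shorter neighbour, whose median length was 1014 bp, and the neighbour had the higher level in 907. Beside long intervals called higher in exocrine tissue, 110 neighbours were tested, with a median length of 967.5 bp. Of these, 40 were called higher, 2 lower, and 91 had a positive fold change. Beside long intervals called lower, 50 neighbours were tested, with a median length of 524 bp. Of these, 31 were called lower, 0 higher by edgeR, and 44 had a negative fold change. Of all intervals tested, 8.07% were called higher and 14.0% lower. Of autosomal intervals under 500 bp, 2.18% were called higher and 33.0% lower, and of those from 500 to 999 bp 13.7% and 12.5%. With trends removed, 22 of 50 neighbours beside higher calls were called higher, and 46 of 116 beside lower calls were called lower. Each set had 1 call the opposite way, and of all intervals 11.9% were called higher and 11.8% lower in that fit. The part of length in the neighbours' calls was not tested. Over all 1130 pairs tested, 729 had the same sign and the fold changes correlated with r = 0.51, or 0.46 with the trend removed, as a description across pairs that share a site and all libraries.

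There were 69 pairs in which both intervals were long, and the 3 with the highest level are given. In the pair with the highest level, chr11:113191005-113193597 had 95.5 ± 14 CPM (SD, n = 5) in control P21 islets and chr11:113193597-113196579, which starts at its end, had 5.02 ± 3.4 CPM. The 5 libraries of the first ran from 83.4 to 119 CPM and those of the second from 0.682 to 8.89 CPM, with no overlap. In the 2nd of these pairs by level, chr9:118598596-118601210 was lower in exocrine tissue (42.6 ± 7.4 against 26.5 ± 7.4 CPM; edgeR adjusted p = 0.0271), and chr9:118601210-118603787 had 13.7 ± 4.7 and 11.6 ± 2.9 CPM, with no call (edgeR adjusted p = 0.487). Their fold changes were not compared by a test. In the 3rd, chr10:59985030-59987537 and chr10:59987537-59990281 had 27.8 ± 8.4 and 18.1 ± 7.5 CPM in control P21 islets, with overlapping libraries, and 19.4 ± 4.3 and 22.7 ± 10.2 CPM in exocrine tissue.

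The 5 long intervals of highest level showed little difference between groups. The 2875 bp interval chr2:172974973-172977848 led with means of 405 ± 93, 453 ± 110, 402 ± 94, 468 ± 56 and 480 ± 37 CPM in control P21, small-litter P21, control P180 and small-litter P180 islets and exocrine tissue. Its groups overlapped and did not differ beyond their spread. The 2532 bp interval chr17:56554803-56557335 ran from 93.9 to 143 CPM over all 25 libraries, and its groups overlapped too. Among these 5, chr1:136746275-136748947 was called between tissues: it had 182, 246, 207, 171 and 237 CPM in control P21 islets and 144, 163, 179, 153 and 146 CPM in exocrine tissue, with overlap in 1 pair of libraries, and fell by 0.46 on the log2 scale (edgeR adjusted p = 0.0299). The other 2 of the 5, chr2:155432280-155435204 and chr6:30101406-30104250, had control P21 islet means of 184 and 140 CPM and were not called. Each of the 5 lowest intervals by level was listed through exocrine counts alone, with islet group means from 0.519 to 1.99 CPM.

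With age, P180 against P21 islets averaged over litter sizes, no long interval passed. Of 2292 long intervals tested (26 missed the filter), 0 were called by edgeR, where 0.212% of all intervals were (0.194% higher and 0.0177% lower), and 158 had an unadjusted p under 0.05. DESeq2 called 4 (over all intervals, 0.640%) and limma voom 2 (over all, 0.415%). The median log2 fold change of long intervals was -0.081, and -0.0019 with length trends removed. Control P180 islet replicate 3, with a share of 1.71%, had the lowest share of counts on long intervals of all libraries.

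With length trends removed, 3 long intervals were called for age, 2 higher and 1 lower at P180, where 0.472% of all intervals were called, 0.309% higher and 0.163% lower. The 2615 bp interval chr8:122816204-122818819 had 22.5, 19.1, 25.5, 22.3 and 17.6 CPM in control P21 islets and 30.7, 29.7, 39.6, 33.8 and 26.0 CPM in control P180 islets, with no overlap. In small litters it had 30.3, 29.5, 27.2, 19.5 and 18.6 CPM at P21 and 31.8, 31.1, 24.2, 48.5 and 34.5 CPM at P180, with overlap. Its log2 fold change was 0.60 ± 0.13 (edgeR adjusted p = 0.0455) with the trend removed and 0.52 ± 0.14 with it kept, which did not pass (edgeR adjusted p = 0.157). Exocrine tissue had 71.1, 53.6, 55.3, 55.2 and 71.7 CPM, above all 20 islet libraries. The 565 bp interval before it, chr8:122815639-122816204, had 96.1 ± 25 CPM in control P21 islets and 235 ± 59 CPM in exocrine tissue (SD, n = 5), and its age difference did not pass (edgeR adjusted p = 0.324).

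The 2975 bp interval chr4:117931719-117934694 had 10.6, 12.0, 18.4, 27.2 and 17.9 CPM in control P21 islets and 24.2, 35.2, 31.2, 16.9 and 30.4 CPM in control P180 islets. In small litters it had 20.8, 17.5, 39.5, 21.5 and 15.4 CPM at P21 and 23.4, 36.5, 28.8, 36.1 and 46.5 CPM at P180. The ages overlapped in both litter groups, and the log2 fold change was 0.76 ± 0.17 with the trend removed (edgeR adjusted p = 0.0455) and 0.63 ± 0.20 with it kept (edgeR adjusted p = 0.243). The 5 exocrine libraries, from 38.8 to 67.2 CPM, lay above control P21 islets. This comparison and the one with age share the control P21 islet libraries.

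The 2724 bp interval chr8:96912549-96915273 was the lower one. It had 4.78, 4.54, 6.13, 3.94 and 3.83 CPM in control P21 islets and 1.69, 1.61, 0.262, 2.53 and 2.74 CPM in control P180 islets. In small litters it had 4.89, 7.55, 6.94, 4.88 and 3.06 CPM at P21 and 0.410, 2.73, 2.91, 2.44 and 2.51 CPM at P180, and within each litter size the P180 libraries lay below the P21 libraries. Its log2 fold change was -1.24 ± 0.27 with the trend removed (edgeR adjusted p = 0.0436) and -1.33 ± 0.30 with it kept, the smallest adjusted p of a long interval for age (edgeR, 0.0700). Limma voom called it too (adjusted p = 0.0322).

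**Figure D5:**
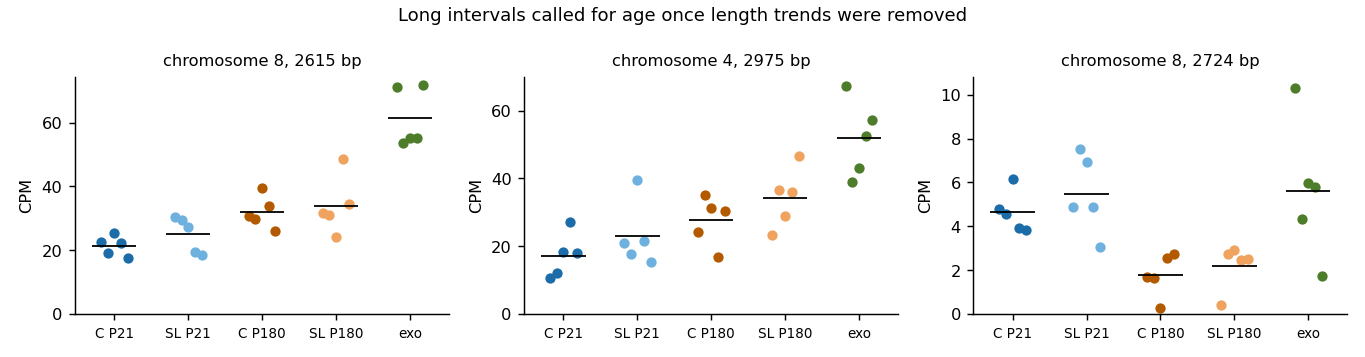
CPM (y axis, linear, from 0) in each library of the 5 groups (x axis: C, control litters; SL, small litters; exo, exocrine tissue at P21) for the 3 long intervals called for age by edgeR once length trends were removed; points are libraries and bars are means of 5. In the left panel exocrine libraries lie above all 20 islet libraries, and in the right panel the P180 islet libraries lie below the P21 islet libraries of the same litter size.

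Other tools called 4 further long intervals for age, named here because they are few and after their values were seen. DESeq2 called chr2:169832086-169834988 and chr17:46605034-46607647 higher and chr17:84411219-84414142 lower at P180, beside chr8:122816204-122818819. Limma voom called chr14:25856697-25859580 lower. By edgeR with the trend kept their adjusted p ran from 0.121 to 0.168, so none of the 4 passed there.

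Within a litter group, neither age comparison called a long interval. Over all intervals tested 0% were called as well. In control litters 0 were called by edgeR, DESeq2 and limma voom, with 76, 82 and 167 at an unadjusted p under 0.05. The lowest p belonged to chr13:68566248-68568985, which had 6.14, 10.04, 6.13, 10.7 and 9.19 CPM at P21 and 16.9, 14.7, 13.1, 12.2 and 17.5 CPM at P180 (edgeR adjusted p = 0.375). In small litters 0 were called by the 3 tools, with 95, 100 and 190 at an unadjusted p under 0.05. The median log2 fold change of long intervals there was -0.16, and -0.0042 with trends removed, beside -0.013 in control litters.

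Litter size gave no call on long intervals at either age. At P21, 0 of 2292 were called by edgeR, DESeq2 and limma voom (0% of all intervals by edgeR), with 33, 26 and 79 at an unadjusted p under 0.05. Their median log2 fold change was 0.12 in small against control litters, and -0.0034 with length trends removed. The lowest p belonged to chr10:41915249-41918095, with 1.71, 1.20, 1.53, 1.81 and 2.81 CPM in control and 3.67, 5.77, 4.77, 2.58 and 3.27 CPM in small litters, where the groups overlapped by 1 pair of libraries (edgeR adjusted p = 1.00). At P180, 0 were called by the 3 tools (0% of all intervals by edgeR), with 23, 26 and 85 at an unadjusted p under 0.05, and the lowest p belonged to chr14:56563521-56566099, with means of 4.63 ± 2.1 and 2.16 ± 1.1 CPM (SD, n = 5). The difference between the age changes of the 2 litter groups called 0 long intervals by the 3 tools (0% of all intervals by edgeR), with 36, 32 and 123 at an unadjusted p under 0.05. With a median standard error of 0.32 (log2) for a long interval in the contrasts of litter size, small differences could not be detected at this depth.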

How the data were processed

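The deposited table holds unscaled read counts for each SmaI/XmaI interval. FastQC 0.10.1, cutadapt, Bowtie 0.12.9 and the build mm9 are named in the submitters' processing notes. How reads were assigned, how PCR duplicates were treated and what filtered the list is not given in the sources used here, nor is it stated whether starts count from 0 or 1. Per the labels' protocols, 500 ng of DNA were digested and amplified, and products were sheared to 200 to 500 bp before sequencing.

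Whole tables were fitted in R 4.3.3 with edgeR 4.0.16 (filterByExpr, TMM, robust quasi-likelihood, Benjamini-Hochberg at 0.05): the 10 control P21 libraries for tissue (22514 intervals) and the 20 islet libraries with 1 mean per group (22654 intervals). CPM used TMM over 25 libraries, and log2 values a prior count of 2. Length trends were removed with a lowess curve (span 0.3) per library as an offset. DESeq2 1.42.0 and limma 3.58.1 voom were alternatives. Fits were tested on simulated counts, and figures drawn with matplotlib 3.10.9.

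Named intervals are those with the largest tissue differences (up to 10 each way) called with trends kept and removed and not overlapping, age and litter intervals called in either fit or else with the lowest p, the 5 highest and 5 lowest levels, and pairs of long neighbours by level. Members, lists and rules were chosen with earlier results of these data known.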

Additional observations from a re-analysis of the deposited data

Results flagged for a closer look

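In 7 cases of 62 groups of 5 libraries examined, 1 library stood far from the other 4 (Dixon's ratio above 0.71). Chance alone gives such a ratio in about 1 of 20 groups of independent, normally distributed values. Small counts near 0 and groups that share libraries do not meet that condition, so the rate need not hold here. Small-litter P21 islet replicate 1 had 37 long intervals with no read, where the others of its group had 0 to 5. Control P180 islet replicate 3 had 15 (others 0 to 4), and exocrine replicate 5 had 6 (others 0 to 1).

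Of the named intervals, chr4:139799632-139802186 had 64.8 CPM in control P21 islet replicate 2, against 14.3 to 24.9 CPM in the others. The interval chr2:179433409-179436032 had 0.468 CPM in exocrine replicate 5, against 2.45 to 3.20 CPM. The interval chr4:117931719-117934694 had 39.5 CPM in small-litter P21 islet replicate 3, the library with the highest correlation of its deviation with length, against 15.4 to 21.5 CPM. The interval chr8:96912549-96915273 had 0.410 CPM in small-litter P180 islet replicate 1, against 2.44 to 2.91 CPM. The part of length trends or of low depth in these values was not tested.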

How the results depend on the processing

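For tissue, 302 long intervals were called (247 higher, 55 lower in exocrine tissue). The count was 139 (109 and 30) with a filter at a mean of 50 counts, where fewer long intervals were tested (825). It was 454 (386 higher) in DESeq2, which called 26.4% of all intervals, 11.5% higher. In limma voom it was 492 (401 and 91), where 30.8% of all intervals were called, 13.1% higher and 17.7% lower. With all 25 libraries in one fit it was 544 (463 higher). With length trends removed it was 147 and 183, and with scaling factors from long intervals alone 82 and 134; the medians were then 0.050 and 0.032. The cause of these shifts was not tested. With the replicate number as a block, 152 (112 and 40) were called. The labels do not say whether the numbers pair samples. Correlations of same-numbered deviations ran from -0.21 to 0.30 over 50 pairs of libraries, and between the tissues from -0.15 to -0.0050. Such correlations cannot settle whether samples were paired. Leaving out 1 library gave 176 to 402 calls (132 to 361 higher, 34 to 73 lower) and a median of 0.23 to 0.46. No shares over all intervals were computed for the filter, 25 libraries together, scaling by long intervals, the block or leaving out 1 library. For age, DESeq2 called 4, limma voom 2 and the fit without length trends 3, against 0; the block and each of 20 refits without 1 library gave 0 by edgeR, with 156 and 125 to 238 at an unadjusted p under 0.05, and a median of -0.12 to -0.032. The contrasts of litter size, of age within a litter group and their difference gave 0 calls in every alternative run. The 20 intervals named for tissue and the 3 for age by the rule kept the sign of their fold change in each alternative that gave a value. They were picked for large or called differences in these same libraries, also with trends removed, so the kept sign is no test of them. Of the 5 highest-level intervals, 4 that were not called changed sign between tissues with trends removed: chr2:172974973-172977848 from 0.20 to -0.093, chr2:155432280-155435204 from 0.0094 to -0.32, chr6:30101406-30104250 from 0.095 to -0.20 and chr17:56554803-56557335 from 0.085 to -0.071. The interval chr11:53277065-53280013 missed the filter in 3 of its 10 refits. The median long interval had 17 to 84 counts in a library, which limits the precision of single values.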
